A study of Mus musculus with 24 samples.

Results

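The 10 genes described here encode secreted signals of fibroblasts, 8 chemokines and 2 cytokines, and were followed in mouse 3T3-L1 cells as they differentiated into adipocytes. They were *Ccl2*, *Ccl7*, *Ccl9*, *Cxcl1*, *Cxcl5*, *Cxcl10*, *Cxcl12*, *Cxcl14*, *Csf1* and *Il6*, 10 of the 26995 gene symbols that were counted. Each was taken by its symbol, and where a symbol had several counting windows, the window that gathered the most total reads on average was used. *Ccl2* and *Ccl7* were selected on their difference between ML-792 and DMSO in labelled reads, so every ML-792 against DMSO value of these genes is a description with no test, and the counts for ML-792 cover the other 8. The 24 libraries came from 8 conditions with 3 biological replicates each, named A, B and C. DMSO, the solvent control, or 0.5 μM ML-792, an inhibitor of the E1 enzyme that activates SUMO, was given, and cells were taken before induction (day -2, the pre-adipocyte or PA stage), at day 1 (clonal expansion, CE), at day 3 and at day 7 (mature adipocyte, MA). Differentiation medium with dexamethasone, 3-isobutyl-1-methylxanthine and insulin was replaced at day 3 by medium with insulin, so day and medium cannot be told apart. How long the day -2 cells of these libraries had been in ML-792 is not given in the sources used here. In the viability assay of the study ML-792 was given from day -2. 3T3-L1 is 1 embryonic fibroblast line in culture. New RNA was labelled with 100 μM 4-thiouridine for 45 min, and reads with at least 1 T-to-C conversion were the labelled (SLAMseq) reads among the total (QuantSeq) reads of the same library.

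Chemokines are small secreted proteins that draw leukocytes along a gradient through G protein-coupled receptors. Stromal cells and pre-adipocytes are known as a source of them in adipose tissue, where CCL2 is the classic attractant of monocytes. Transcription of many of these genes is driven by NF-κB, often together with AP-1 or with interferon-activated factors, and several of their messages carry AU-rich elements in the 3′ end that shorten their life. SUMO, a small ubiquitin-like modifier, is attached mostly to nuclear proteins, among them many transcription factors.

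The promoters were read to show what the members share besides their family names. RefSeq promoter entries on GRCm38.p6 matched 7 of the 10 members, and the 250 bases before the annotated start were searched on both strands. The κB consensus was found in 5 of the 7, those of *Csf1*, *Il6*, *Cxcl1*, *Cxcl10* and *Ccl9*, against 3.9% of 32851 promoter windows of the same length. The AP-1 motif TGANTCA was found in 3 of the 7, *Il6*, *Cxcl10* and *Ccl9*, against 6.75%. The interferon-stimulated response element, by its consensus, was found in 2, *Cxcl10* and *Cxcl14*, against 2.98%, the GAS motif TTCNNNGAA in 1, *Cxcl14*, against 7.02%, and TATAAA in 1, *Ccl9*, against 12.4%. A match is a description of these letters and no evidence of binding. The 3 promoters below are shown as examples with 1, with several and with none of these motifs: *Cxcl1* (chr5:90890995-90891244, plus strand), *Cxcl10* (chr5:92348890-92349139, minus strand) and *Cxcl12* (chr6:117168285-117168534, plus strand). Capitals mark the κB matches in *Cxcl1*, the response element, κB and AP-1 matches in *Cxcl10*, and nothing in *Cxcl12*, whose window held none of these motifs. All are written 5′ to 3′ on the gene's strand.
Cxcl1: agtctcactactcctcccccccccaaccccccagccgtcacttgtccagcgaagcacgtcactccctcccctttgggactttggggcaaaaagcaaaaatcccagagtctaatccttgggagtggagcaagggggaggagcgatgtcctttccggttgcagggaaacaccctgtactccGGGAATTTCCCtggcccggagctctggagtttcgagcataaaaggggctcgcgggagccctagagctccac
Cxcl10: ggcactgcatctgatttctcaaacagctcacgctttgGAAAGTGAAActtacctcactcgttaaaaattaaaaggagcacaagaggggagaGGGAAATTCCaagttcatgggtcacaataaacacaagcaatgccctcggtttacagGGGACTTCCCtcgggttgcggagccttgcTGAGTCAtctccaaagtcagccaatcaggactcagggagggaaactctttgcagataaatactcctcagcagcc
Cxcl12: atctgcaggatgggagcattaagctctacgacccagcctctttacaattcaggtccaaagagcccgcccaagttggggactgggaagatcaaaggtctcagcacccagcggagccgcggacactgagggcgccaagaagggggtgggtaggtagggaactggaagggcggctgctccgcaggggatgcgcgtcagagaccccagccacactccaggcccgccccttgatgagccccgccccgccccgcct

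Every counting window of the 10 members lay after the coding sequence, inside the last exon, and ended at the annotated transcript end on mm10. The AU-rich core TATTTAT occurred in 4 of the 10 windows, those of *Cxcl1*, *Il6*, *Cxcl5* and *Csf1*, against 27.8% of the 13264 windows read. The *Cxcl1* window at chr5:90892524-90893121 held 6 copies in 598 bases, and 16.8% of windows of like length held any. For *Il6*, *Cxcl5* and *Csf1*, with 1 copy each, that share was 13.5%, 25.2% and 40.1%. The shorter motif ATTTA came at 11.7 per kb in *Cxcl1* and 11.8 per kb in *Il6*, where the median window had 1.2, and only 0.317% and 0.804% of like-length windows held as many. One 25-base site of each gene is shown 5′ to 3′ with the core in capitals, at chr5:90892605-90892629 for *Cxcl1*, chr5:30019730-30019754 for *Il6* and chr5:90761230-90761254 for *Cxcl5*, all on the plus strand, and at chr3:107742912-107742936 on the minus strand for *Csf1*.
Cxcl1: ggtccTATTTATTTATgTATTTATt
Il6: tatgattgaTATTTATtatttttat
Cxcl5: actgtatacTATTTATtaattatta
Csf1: tactgccacTATTTATtgtgggccc

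Total reads per library ranged from 13554718 to 27013352 and labelled reads from 115709 to 820046. Labelled reads made up 3.17% of DMSO libraries at day -2 and 1.27%, 1.03% and 1.03% at days 1, 3 and 7, and 2.83%, 1.06%, 0.958% and 0.837% of ML-792 libraries. Values below are normalized reads, the reads of a window scaled to a library of mean effective size, and 3 reads, the limit that a count of 0 allows, correspond to 2.01 to 4.10 normalized reads. Levels of different genes are not compared, since a 3′ tag count depends on the window. Markers went with the labelled stages. Summed pre-adipocyte markers were at 283871 to 345617 normalized reads per DMSO library at day -2 and at 25595 to 38114 at day 7, and summed adipocyte markers at 22645 to 24224 and at 655372 to 737388. Of 10 macrophage markers, *Ptprc* had 0 reads in all 24 libraries and *Adgre1*, *Cd163* and *Itgam* had 12, 7 and 14 reads in all 24 together. The sum of the macrophage list was 207 to 290 at day -2 and 121 to 151 at day 7 in DMSO. Over all 24 libraries *Cd14* had 3226 reads, *Cd68* 1200, *Csf1r* 384 and *Lyz2* 117. *Csf1r* was lower at day 7 than at day -2 in DMSO (log2 change -5.53, SE 1.33). Of the endothelial markers, *Pecam1* had 164 reads in all, at most 21 in a library, and *Cdh5* had 6.

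The first comparison asked how the chemokine and cytokine messages moved as DMSO-treated cells left the PA stage. In total reads, 6 of the 9 members that passed the filter on low counts had dropped by day 1 relative to day -2, and all 9 by days 3 and 7 (edgeR quasi-likelihood test, Benjamini-Hochberg adjusted p under 0.01). Of all 13263 genes tested, 9.9% were called lower at day 1, 19.4% at day 3 and 19.4% at day 7. The median log2 change of the 9 members was -2.42, -4.76 and -4.24 at these days, where the median of all genes was 0.00, 0.01 and -0.01. *Cxcl10* and *Il6*, with at most 54 and 55 reads in a library, passed the filter only through conditions in which they were high, so they had to differ and no test of theirs over time is given. The medians above include both. Of the other 7 members, 6, 7 and 7 were lower at these days. These include *Cxcl5*, which had 8, 2 and 8 total reads in the day 7 libraries and passed the filter only through other conditions. The filter thus favoured its calls at day 7, also against day 3. Without *Ccl2* and *Ccl7*, which were selected with these DMSO libraries, 4, 7 and 7 of 7 were lower, with *Cxcl10* and *Il6* included. *Cxcl14*, a chemokine of epithelia and stroma counted at chr13:56288643-56289791 (minus strand), had 0 reads in all 24 libraries and was not tested, and a count of 0 in a library allows up to 3 reads. In such bulk samples, fewer cells of a type and less RNA per cell cannot be told apart.

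The CC chemokines that attract monocytes dropped steeply at day 1. *Ccl2*, the principal ligand of CCR2 counted at chr11:82037179-82037452 (plus strand), was at 3212, 4974 and 2516 normalized reads at day -2, 157, 229.5 and 153 at day 1, 87.5, 131 and 61.3 at day 3 and 30.5, 49.0 and 29.7 at day 7 in the A, B and C libraries. Changes are given as log2 fold change ± SE. Every later library was below the lowest at day -2, and *Ccl2* fell by 4.31 on the log2 scale at day 1 (SE 0.33, adjusted p = 2.56e-07) and stood at -6.60 ± 0.37, adjusted p = 1.95e-09 at day 7. *Ccl7*, its neighbour on chromosome 11 and another CCR2 ligand counted at chr11:82047091-82047525 (plus strand), was at 3917, 3799 and 2978 normalized reads at day -2, 265, 239 and 236 at day 1, 112, 122 and 113 at day 3 and 75.6, 41.7 and 65.1 at day 7. Its groups were also separate from day -2 on, with a log2 change of -3.85 ± 0.21, adjusted p = 1.26e-08 at day 1 and -5.87 ± 0.24, adjusted p = 6.98e-11 at day 7. Both genes take the DMSO libraries that also served as the controls for their selection. *Ccl9*, a CCR1 ligand found in rodents counted at chr11:83572917-83575383 (minus strand), was at 728, 618 and 635 normalized reads at day -2, 35.9, 51.0 and 25.6 at day 1, 17.5, 32.5 and 23.1 at day 3 and 139, 184 and 153 at day 7. It fell by 4.14 at day 1 (SE 0.29, adjusted p = 1.27e-07), and its day 7 libraries stood between those of day -2 and day 3 without overlap. The rise of *Ccl9* from day 3 to day 7 was 2.70 ± 0.30, adjusted p = 1.69e-05.

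The neutrophil attractants that signal through CXCR2 went down in steps. *Cxcl1*, counted at chr5:90892524-90893121 (plus strand), was at 884, 962 and 1234 normalized reads at day -2, 226, 131 and 217 at day 1, 175, 185 and 139 at day 3 and 49.6, 57.4 and 56.0 at day 7. Days 1 and 3 overlapped, with a log2 difference of -0.20 ± 0.23, adjusted p = 0.572, while day -2 stood above both and day 7 below both. Against day -2 *Cxcl1* changed by -2.42 ± 0.24, adjusted p = 2.74e-06 at day 1 and by -4.24 ± 0.26, adjusted p = 4.72e-09 at day 7. *Cxcl5*, counted at chr5:90760514-90761625 (plus strand), was at 1369.6, 1267 and 1752 normalized reads at day -2, 420.2, 434 and 386 at day 1, 16.4, 27.8 and 40.5 at day 3 and 9.03, 2.09 and 9.14 at day 7. Its day 1 libraries lay between those of day -2 and day 3 without overlap (-1.82 ± 0.27, adjusted p = 1.40e-04 against day -2), and the drop from day 1 to day 3 was -3.87 ± 0.32, adjusted p = 2.55e-07. Without replicate A the day 1 change of *Cxcl5* was -1.88 with adjusted p = 0.0103.

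*Cxcl10*, the interferon-induced ligand of CXCR3, and *Il6*, the pleiotropic cytokine of the gp130 family, were scarce. *Cxcl10*, counted at chr5:92346638-92347366 (minus strand), was at 36.0, 48.3 and 36.4 normalized reads at day -2, 14.7, 10.0 and 6.60 at day 1, 0, 10.4 and 0 at day 3 and 2.26, 8.34 and 1.1 at day 7. Each day -2 library was above each later one, and 0 reads were found in 2 of the 3 libraries of day 3. *Il6*, counted at chr5:30019469-30019975 (plus strand), was at 13.9, 42.9 and 28.4 normalized reads at day -2, 22.1, 23.7 and 21.4 at day 1, 7.66, 2.32 and 1.16 at day 3 and 1.13, 0 and 2.28 at day 7. Days -2 and 1 overlapped, and days 3 and 7 were below both. With 97 reads at day -2 and 3 at day 7 over 3 libraries each, the scaled ratio of *Il6* was 25.4 (exact 95% counting interval 8.43 to 125.2).

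*Cxcl12*, the ligand of CXCR4 that retains haematopoietic cells in stroma, was the member whose total reads moved least at day 1. *Cxcl12*, counted at chr6:117173583-117175069 (plus strand), was at 13302, 16032 and 13108 normalized reads at day -2, 11658, 18899 and 11587 at day 1, 4390.1, 5536 and 5051 at day 3 and 1166, 1573 and 1276 at day 7. Days -2 and 1 overlapped with a log2 difference of -0.01 ± 0.21 (95% interval -0.42 to 0.40), and from there each day lay below the one before, by -1.49 ± 0.21, adjusted p = 6.44e-05 from day 1 to day 3 and by -1.90 ± 0.22, adjusted p = 2.35e-05 from day 3 to day 7. *Csf1*, the growth factor of monocytes and macrophages counted at chr3:107741048-107743145 (minus strand), was at 5207, 4281 and 5082 normalized reads at day -2, 589, 654 and 621 at day 1, 131, 75.3 and 155 at day 3 and 289, 195 and 324 at day 7. It fell at once (-2.97 ± 0.25, adjusted p = 5.91e-07), reached its lowest level at day 3 (-5.33 ± 0.28, adjusted p = 1.01e-09) and was higher again at day 7 in each library. The rise of *Csf1* from day 3 to day 7 was 1.16 ± 0.25, adjusted p = 0.00403. It was 1.17 with adjusted p = 0.106 without replicate A and 1.22 with adjusted p = 0.0363 without replicate C. In the other counting window of *Csf1* it was 1.83 with adjusted p = 0.0489.

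From day 3 to day 7, 4 of the 9 members were lower again, *Cxcl1*, *Cxcl5*, *Cxcl12* and *Ccl7*, where 4.38% of all genes were lower, and 2 rose, *Ccl9* and *Csf1*, where 6.61% were higher. *Cxcl5* changed by -2.06 ± 0.43, adjusted p = 0.00342, *Ccl7* by -0.93 ± 0.21, adjusted p = 0.00727 and *Cxcl1* by -1.61 ± 0.25, adjusted p = 3.42e-04. *Ccl2* missed the threshold (-1.35 ± 0.34, adjusted p = 0.0128), and without replicate B it was -1.31 with adjusted p = 0.00218. The falls of *Cxcl5* and *Ccl7* lost their calls without replicate A (-2.61 with adjusted p = 0.0194 and -1.14 with adjusted p = 0.0608), without B (-1.62 with adjusted p = 0.024 and -0.68 with adjusted p = 0.0281) and without C (-1.99 with adjusted p = 0.0473 and -0.99 with adjusted p = 0.0691), and that of *Cxcl1* without A (-1.51 with adjusted p = 0.0343).

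**Figure D1:**
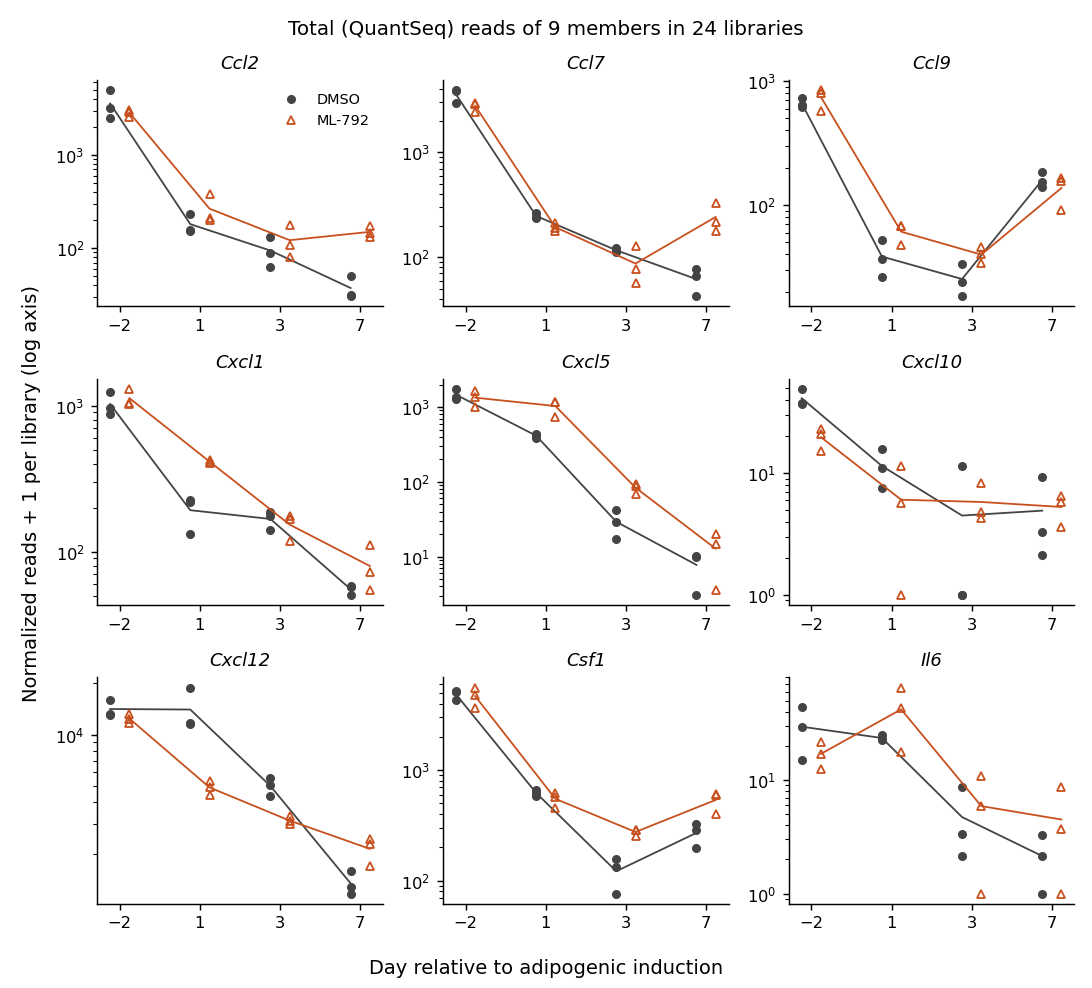
Normalized total (QuantSeq) reads plus 1 of 9 members in each of the 24 libraries, on log axes, against the 4 days, drawn at equal spacing. Filled circles are DMSO and open triangles ML-792, and lines join group means of 3 libraries. All 9 DMSO panels end below their day -2 level, with *Cxcl12* level until day 1 and *Ccl9* and *Csf1* turning up after day 3.

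Labelled reads, taken as the RNA made in the last 45 min, showed whether new transcripts moved with the totals. They also hold any background of T-to-C mismatches, which was not taken off in the values below. Such background would weigh most where the labelled share is low, as in *Cxcl12*, at 1.06%, 0.706% and 0.601% at days -2, 1 and 3. Of the 7 members with enough labelled reads, 6 were lower at day 1 and 7 at days 3 and 7, where 19.6%, 33.3% and 29.2% of 6208 genes were lower. Labelled *Ccl9* passed the filter only through day -2, and labelled *Cxcl5* only through days -2 and 1, so the filter favoured their calls at the later days. Without *Ccl9* the counts were 5, 6 and 6 of 6, which still include *Cxcl5*, favoured by the filter at days 3 and 7. *Ccl2* and *Ccl7* were selected on a difference that used the labelled reads of these DMSO libraries, so their tests below are not separate from their selection. Without these 2 genes 4, 5 and 5 of 5 members were lower, with *Ccl9* and *Cxcl5* included. Labelled reads fell as a whole after induction, the median gene by 1.2, 1.63 and 1.46 on the log2 scale at days 1, 3 and 7. The members' medians were -5.15, -6.21 and -4.81, or -3.95, -4.58 and -3.35 relative to those medians. *Ccl2* had 824, 983 and 583 normalized labelled reads at day -2, 14.7, 16.4 and 8.25 at day 1, 9.85, 13.9 and 8.10 at day 3 and 4.51, 0 and 4.57 at day 7. Its groups after day -2 were all far below it, with -4.71 relative to the median gene at day 1 (fitted change -5.92 ± 0.45, adjusted p = 7.69e-15). *Ccl7* had 1019, 732 and 765, then 23, 32.8 and 14.8, then 12, 4.64 and 15.0, then 5.64, 4.17 and 8.0 at the same days, -3.95 relative to the median at day 1 (-5.15 ± 0.41, adjusted p = 2.78e-14). *Csf1* had 743, 488 and 659.9, then 15.6, 15.5 and 19.0, then 3.28, 3.48 and 1.16, then 18.1, 35.5 and 21.7. Its day 3 libraries were the lowest and its day 7 libraries were all above those of day 3.

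That rise of *Csf1* in labelled reads from day 3 to day 7 was 3.19 ± 0.51, adjusted p = 9.06e-05, or 3.06 relative to the median gene. It was the only rise called among the 7 members, and 0.274% of all genes were called higher in labelled reads over these days. Without replicate C it was 2.94 with adjusted p = 0.0226. The other counting window of *Csf1* gave no measure of this rise in labelled reads. Its fitted change over these days was 0 with no SE, and against day -2 it was -6.15 at days 1, 3 and 7 alike. *Cxcl1* had 227, 196 and 277 normalized labelled reads at day -2 and 12.9, 4.55 and 20.6 at day 1 (-4.18 ± 0.51, adjusted p = 8.97e-09). *Cxcl5* had 244, 218 and 333 and 25.7, 16.4 and 31.3 (-3.43 ± 0.46, adjusted p = 7.42e-08), and 2 reads were left in the 3 libraries of day 3, a scaled ratio of 349 (exact 95% counting interval 96.4 to 2888). *Ccl9* went from 33.5, 13.4 and 16.0 to 1 read in the 3 libraries of day 1, a ratio of 72.5 (12.6 to 2903). It had 1 labelled read at day 3 and 5 at day 7, all 5 in library A, too few to judge a rise. *Cxcl12* had 139.9, 179 and 133 normalized labelled reads at day -2, 67.1, 158 and 81.7 at day 1 and 30.6, 23.2 and 34.7 at day 3. Days -2 and 1 overlapped, and the day 1 change, -0.56 ± 0.39, was 0.65 relative to the median gene. Scaled by labelled reads, the day 3 change of *Cxcl12* was -0.96 with adjusted p = 0.0744 where the total-read scaling gave -2.35 ± 0.42, adjusted p = 1.33e-05. In *Cxcl10* the 17 labelled reads of day -2 went to 0 at day 1, at least 1.83-fold lower against a floor of 3 reads per library, and in *Il6* the 27 reads of day -2 went to 0 at day 3 and at day 7, at least 2.32-fold and 2.39-fold lower.

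**Figure D2:**
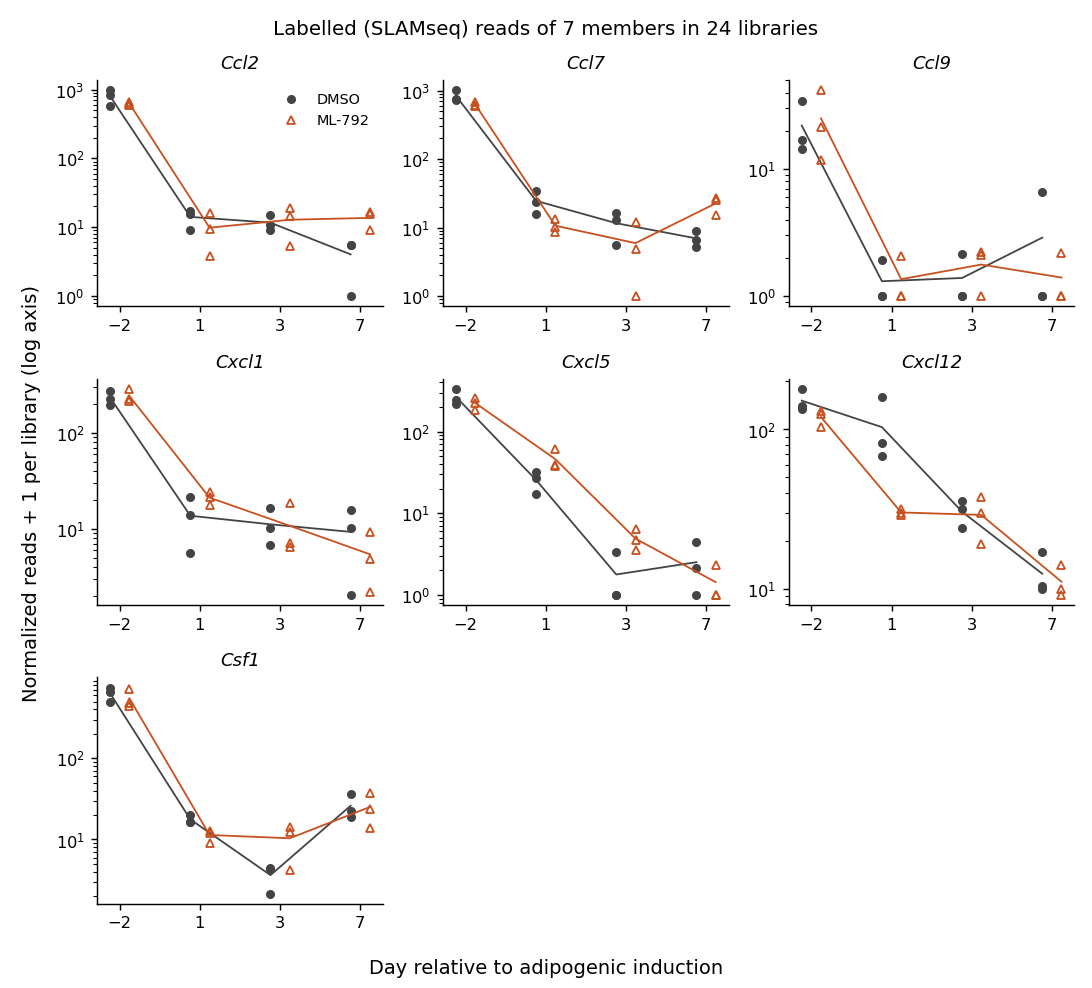
Normalized labelled (SLAMseq) reads plus 1 of 7 members in each of the 24 libraries, on log axes, against the 4 days at equal spacing. Filled circles are DMSO, open triangles ML-792, and lines join means of 3 libraries. *Csf1* in DMSO dips to 1.16 to 3.48 normalized reads at day 3 and returns to 18.1 to 35.5 at day 7, and *Ccl2* and *Ccl7* in ML-792 end above DMSO.

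The share of a gene's total reads that was labelled rises with the part of its message made during labelling, and it was high for most members before induction. At day -2 in DMSO it was 23.7% ± 3.79 (SD, n = 3) for *Ccl7*, 22.9% ± 2.96 for *Ccl2*, 22.9% ± 2.71 for *Cxcl1*, 18.0% ± 0.911 for *Cxcl5* and 12.9% ± 1.43 for *Csf1*. The median of the 8921 genes with at least 100 reads was 2.37%, the 90th percentile 7.11% and the 99th 18.5%. Ranked among them, 99.6% of genes lay below *Ccl7*, 99.5% below *Ccl2* and *Cxcl1*, 98.8% below *Cxcl5* and 97.3% below *Csf1*. *Il6*, on 27 of 97 reads, was at 26.8% ± 10.1 and *Cxcl10*, on 17 of 139 reads, at 12.2% ± 5.51. *Ccl9* was at 3.10% ± 1.32, with 62.1% of genes below it, and *Cxcl12* at 1.06% ± 0.0504, with 18.1% below it. The share depends on the number of T bases a read covers as well as on turnover, so its order across genes is a description. T made up 40.5% of the *Ccl2* window, 38.0% of *Cxcl5*, 35.3% of *Cxcl1* and 34.9% of *Ccl7*. It made up 34.9% of *Ccl9*, 29.1% of *Cxcl12* and 23.4% of *Csf1*, and the median of genes tested in total reads was 28.7%. The part of T content in the shares was not tested. The 5 members with these high shares were all lower in total reads at day 1, and *Cxcl12* with the lowest was not, but *Ccl9* with its low share fell by 4.14.

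Across 8921 genes, which share libraries and are no independent replicates, Pearson's r between the day -2 share and the log2 change of total reads at day 1 was -0.133 and Spearman's rho -0.081. The 100 genes with the highest shares, from 18.2% up, held 3 members and had a median log2 change of -0.71 at day 1, where the other 8821 had -0.01. After induction the shares of the members fell with those of all genes, whose median was 1.05%, 0.806% and 0.874% at days 1, 3 and 7. *Ccl2* was at 7.29% ± 1.99 at day 1 and 11.7% ± 1.35 at day 3, and *Ccl7* at 9.57% ± 3.80 and 9.29% ± 4.90. *Csf1* had 2.69% ± 0.345 on day 1, then 2.62% ± 1.94 on day 3 (SD, n = 3). On day 7 its share was 6.25%, 18.2% and 6.69% in the A, B and C libraries, so the mean of 10.4% ± 6.77 rests on replicate B. In ML-792 *Csf1* stood at 4.35% ± 1.5 at day 7.

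**Figure D3:**
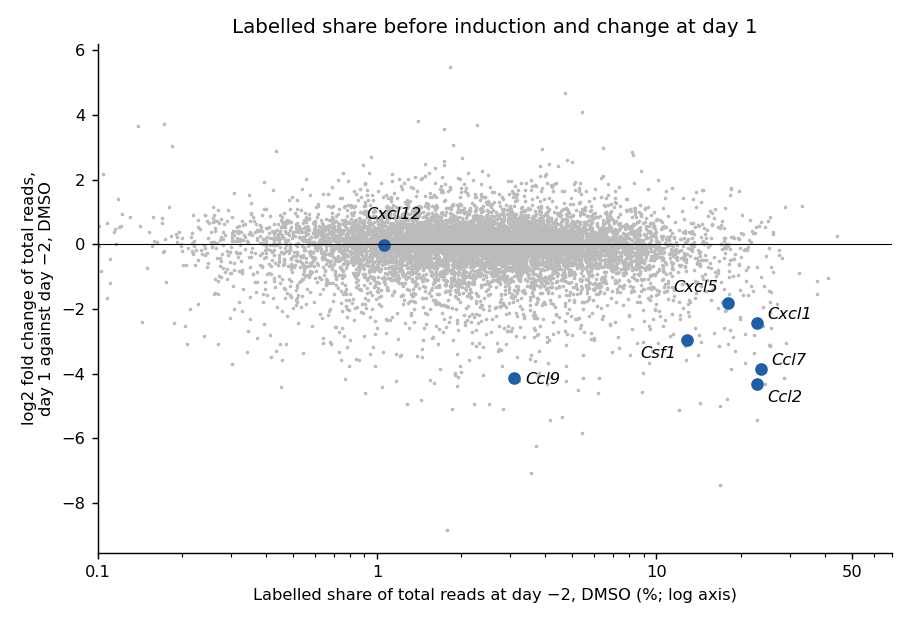
Labelled share of total reads at day -2 in DMSO (percent, log axis from 0.1%, which leaves 42 of 8921 genes outside) against the log2 fold change of total reads at day 1 in DMSO. Grey points are all genes with at least 100 reads and blue points 7 members. *Ccl2*, *Ccl7*, *Cxcl1*, *Cxcl5* and *Csf1* lie at the right and below 0, *Ccl9* below 0 near the centre of the shares, and *Cxcl12* at 0.

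**Figure D4:**
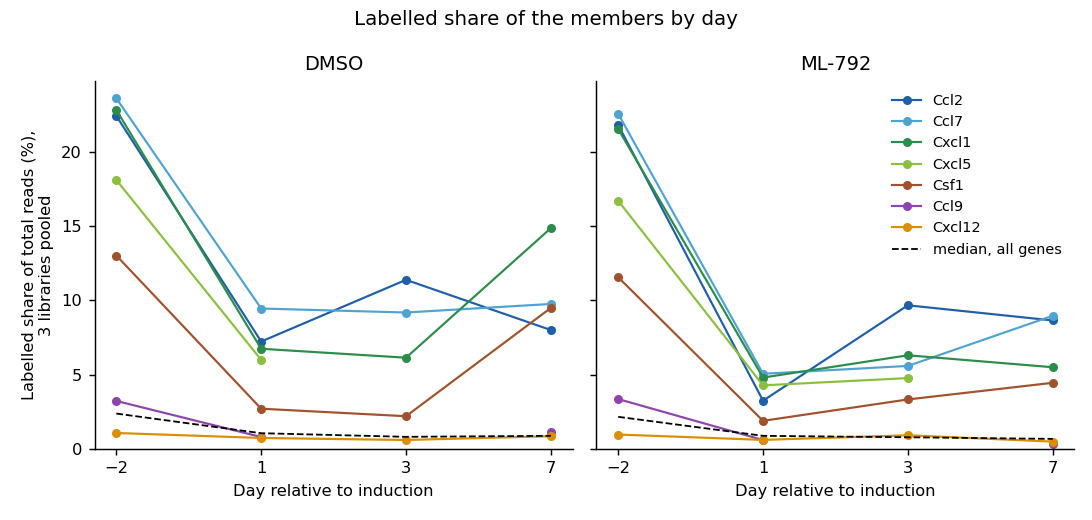
Labelled share of total reads (percent, 3 libraries pooled) of 7 members against the day at equal spacing, in DMSO and ML-792, with the median of all genes dashed. Points on fewer than 100 total reads are left out. The high shares of day -2 are lower at each later day, and *Csf1* in DMSO goes from 2.19% at day 3 to 9.49% at day 7.

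The second comparison asked what inhibition of SUMO activation changed. For *Ccl2* and *Ccl7*, which were selected on this difference, the values are given as a description. *Ccl2* in ML-792 was at 2577, 2921 and 3039 normalized reads at day -2, 201, 384 and 208 at day 1, 79.3, 175 and 108 at day 3 and 131, 143 and 172 at day 7. Its ML-792 and DMSO libraries overlapped at days -2, 1 and 3 and were wholly apart at day 7, with a log2 difference of 2.02 ± 0.35 (SE). *Ccl7* in ML-792 was at 2906, 2440.0 and 2971 normalized reads at day -2, 178, 188 and 211 at day 1, 55.4, 76.0 and 127 at day 3 and 176, 217 and 329 at day 7. It was below DMSO in each library at day 1 (-0.36 ± 0.24) and above it in each library at day 7 (1.99 ± 0.26). In labelled reads *Ccl2* had 14.3, 15.4 and 8.19 at day 7 against 4.51, 0 and 4.57 in DMSO (2.06 ± 0.58). *Ccl7* had 14.3, 25.7 and 24.6 against 5.64, 4.17 and 8.0 (1.84 ± 0.49). For both, the 3 ML-792 libraries lay above the 3 of DMSO. Labelled reads of the median gene differed by -0.31, -0.07 and -0.38 between ML-792 and DMSO at days 1, 3 and 7, so at day 7 the differences relative to it were 2.43 and 2.22. Without replicate B the labelled day 7 difference of *Ccl2* was 1.30, and without C it was 2.69. Summed pre-adipocyte markers were also higher in ML-792 at day 7, at 45121 to 64175 normalized reads per library, and so were summed adipocyte markers, at 865366 to 929869, and the part of either in these differences was not tested. The macrophage list summed to 127 to 191 there, overlapping DMSO.

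Among the other 8 members, 7 were tested in total reads and 5 in labelled reads, and none was called at day -2 (adjusted p under 0.1). At that day 0% of all genes were called in total and 0% in labelled reads, where 184 of 13263 and 42 of 6208 had an unadjusted p under 0.05, with 0 of the members, and DESeq2 called 0 of either. At day 1, 3 members were called in total reads, where 8.12% of all genes were, at day 3 again 3, where 15.5% were, and at day 7, 2, where 11.8% were. In labelled reads 1 was called at day 1, where 1.11% were, and none at days 3 and 7 by edgeR, where 1.16% and 0.999% were, with 0 and 0 by DESeq2 at these days and an unadjusted p under 0.05 for 2 and 0 members. The difference between ML-792 and DMSO depended on the day for 4 members in total reads (interaction of day and treatment), where 12% of all genes passed, and for none in labelled reads, where 0.29% did, DESeq2 called 0 members and 3 had an unadjusted p under 0.05. Without replicate A or C 1 member passed the interaction in total reads.

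The CXCR2 ligands were higher in ML-792 early in differentiation. *Cxcl1* was at 409.7, 404 and 427 normalized total reads at day 1 in ML-792 against 226, 131 and 217 in DMSO. The groups did not overlap, with a log2 difference of 1.11 ± 0.23, adjusted p = 0.00296. At day 3 it was at 117, 174 and 166 against 175, 185 and 139, which overlapped (95% interval -0.59 to 0.33). *Cxcl5* was at 1183, 736 and 1171 at day 1 against 420.2, 434 and 386 in DMSO, and at 87.0, 68.4 and 92.6 at day 3 against 16.4, 27.8 and 40.5. It was higher in every ML-792 library at both days, by 1.32 ± 0.29, adjusted p = 0.00592 at day 1 and 1.55 ± 0.36, adjusted p = 0.00488 at day 3. The day 1 call of *Cxcl5* was lost without replicate A (1.22 with adjusted p = 0.256) and without C (1.17 with adjusted p = 0.213), and its day 3 call without A (1.23 with adjusted p = 0.228). In labelled reads at day 1 *Cxcl1* differed by 0.64 ± 0.49 (95% interval -0.32 to 1.61) and *Cxcl5* by 0.87 ± 0.41 (0.06 to 1.67), and neither passed. The macrophage list summed to 270 to 448 in ML-792 and 164 to 197 in DMSO at day 1, with *Ptprc* at 0, and its part in the day 1 differences was not tested.

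*Cxcl12* moved the other way at day 1. In ML-792 it was at 4429.8, 5323 and 4941 against 11658, 18899 and 11587 in DMSO, each library below the lowest of DMSO (-1.52 ± 0.18, adjusted p = 5.87e-06). In labelled reads it was at 28.9, 27.9 and 30.8 against 67.1, 158 and 81.7, again without overlap (-1.80 ± 0.38, adjusted p = 0.00548), or -1.49 relative to the median gene. The labelled share was only 0.600% in ML-792 and 0.706% in DMSO, with no background taken off. That labelled call was lost without replicate B (-1.32 with adjusted p = 0.183) and without C (-1.99 with adjusted p = 0.116). At day 3 *Cxcl12* was at 2987, 3308 and 3091 total reads against 4390.1, 5536 and 5051 (-0.67 ± 0.18, adjusted p = 0.017), and at day 7 the order had turned, at 1703, 2275 and 2426 against 1166, 1573 and 1276 (0.67 ± 0.18, adjusted p = 0.0228). Without replicate A these were -0.73 with adjusted p = 0.142 at day 3 and 0.72 with adjusted p = 0.182 at day 7, and without C -0.66 with adjusted p = 0.229 and 0.54 with adjusted p = 0.439. In the other 2 counting windows of *Cxcl12* the differences at days 1 and 7 were smaller. One of these windows lies inside the other, so they are not separate checks. At day 1 they were -0.69 and -0.68 in total reads (adjusted p = 0.0409 and 0.0443) and -1.16 and -1.13 in labelled reads (adjusted p = 0.375 and 0.378, not called), and at day 7 they were 0.25 in both and not called. The *Cxcl12* differences varied with the day (interaction, adjusted p = 2.96e-05, and 0.0846 and 0.0896 in the other windows). Against day -2, *Cxcl12* in ML-792 was lower by day 1 (-1.34 ± 0.15, adjusted p = 1.59e-05), but in the other windows by -0.56 and -0.55 (adjusted p = 0.0424 and 0.0446), which missed the threshold.

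*Csf1* was higher in ML-792 late. At day 3 it was at 252, 285 and 286 against 131, 75.3 and 155 in DMSO (1.18 ± 0.24, adjusted p = 0.00125), and at day 7 at 596, 403 and 611 against 289, 195 and 324 (0.99 ± 0.23, adjusted p = 0.00643). All ML-792 libraries were above all DMSO libraries at both days, and at day 1 the groups overlapped (95% interval -0.61 to 0.26). The day 7 call of *Csf1* was lost without replicate A (0.96 with adjusted p = 0.217) and without C (1.05 with adjusted p = 0.116). In labelled reads *Csf1* differed by 1.75 ± 0.57 at day 3 (95% interval 0.63 to 2.87, adjusted p = 0.185) and by -0.07 ± 0.39 at day 7 (-0.83 to 0.70). *Ccl9* was not called at any day, with intervals of 0.13 to 1.23, 0.07 to 1.28 and -0.72 to 0.28 at days 1, 3 and 7, but at day 1 it was with the replicate letter as a block (0.70 with adjusted p = 0.0828). For *Cxcl10* at day 1 the interval was -2.84 to 0.75 and for *Il6* -0.57 to 2.28, so changes of several fold were not detectable at this depth.

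**Figure D5:**
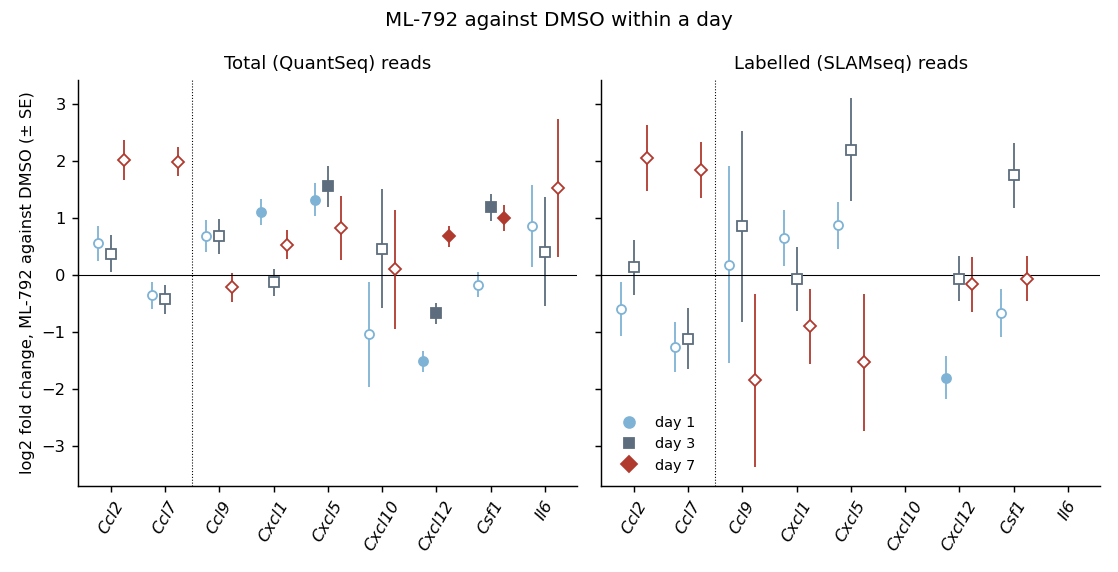
Log2 fold change of ML-792 against DMSO (± SE) at days 1, 3 and 7 for 9 members in total reads and 7 in labelled reads. Filled symbols passed adjusted p under 0.1. *Ccl2* and *Ccl7*, left of the dotted line, were selected on this difference and not tested. *Cxcl12* lies lowest at day 1 in both panels, at -1.52 and -1.80, and *Ccl2* and *Ccl7* lie between 1.84 and 2.06 at day 7.

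The course under ML-792, from 12 libraries that share none with the DMSO course, was downward as well. Relative to day -2, total reads were lower for 6 of 9 members on day 1, for 7 on day 3 and for 7 on day 7, where 13.8%, 20.9% and 20.5% of all genes were. In labelled reads 7 of 7 were lower at each day, where 27.1%, 33.8% and 38.3% were, and without *Ccl9* 6 of 6. These counts include *Cxcl5*, favoured by the filter at days 3 and 7 in labelled reads and at day 7 in total reads. *Ccl2* and *Ccl7* were selected on a difference that used these ML-792 libraries. Without these 2 genes, 4, 5 and 5 of 7 members were lower in total reads at days 1, 3 and 7. In labelled reads it was 5 of 5 at each day, with *Ccl9* and *Cxcl5* included. *Cxcl5*, lower at day 1 in DMSO, was at -0.37 ± 0.28, adjusted p = 0.348 in ML-792. *Csf1* and *Ccl9* rose again from day 3 to day 7 (0.97 ± 0.20, adjusted p = 0.00411 and 1.80 ± 0.27, adjusted p = 4.17e-04). *Cxcl10* and *Il6* were not called at any day. With labelled reads scaled by their own totals, 4 of 7 members were lower at day 1 in ML-792.

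Other genes of these pathways, from lists chosen by family, moved with the members in part. Among 13 of 26 other chemokine ligands that were tested, 9 were lower and 3 higher at day 7 than at day -2 in DMSO total reads, where 19.4% of all genes were lower and 19.1% higher. *Ccl8* went from 534, 453 and 472 normalized reads to 2.26, 1.04 and 1.1 (-8.25 ± 0.56, adjusted p = 1.07e-08). Genes with almost no reads at day 7, such as *Ccl8*, *Il33*, *Lif* and *Rsad2*, passed the filter only through conditions in which they were high. The filter thus favoured their calls and the counts of lower genes in these lists. *Cxcl13*, the B cell attractant, went from 4.09, 0.894 and 0.888 to 98.2, 103 and 131 (5.70 ± 0.47, adjusted p = 1.00e-07), and *Ccl6* rose by 3.88 ± 0.37, adjusted p = 4.87e-07. With almost no reads at day -2, *Cxcl13* also passed the filter only through conditions in which it was high, which favoured its call. Of 13 of 22 other fibroblast cytokines, 7 were lower and 3 higher. *Il33*, an alarmin, went from 69.5, 55.4 and 65.7 to 1.13, 1.04 and 0 and *Lif*, of the IL-6 family, from 55.6, 34.9 and 40.0 to 0, 2.09 and 0, on 2 reads each at day 7. *Vegfa*, the growth factor of vessels, rose by 1.71 ± 0.20, adjusted p = 4.53e-06. Of 16 of 26 receptors, 8 were lower and 3 higher. *Ackr3*, the scavenging receptor of CXCL12, went from 220.1, 281 and 258 to 3.39, 5.21 and 1.1 (-6.21 ± 0.45, adjusted p = 2.60e-08), and *Il6ra*, the binding subunit for IL-6, rose by 1.40 ± 0.23, adjusted p = 1.35e-04.

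Signalling and response genes were counted in the same way. Of 13 interferon response genes tested, 12 were lower at day 1, where 9.9% of all genes were, and 11 at day 7, where 19.4% were, with none higher and a median log2 change of -4.22 at day 7. *Rsad2*, an antiviral effector, went from 78.5, 143 and 199.8 to 0, 0 and 1.1 normalized reads, and *Ifit1*, which binds foreign RNA ends, changed by -7.32 ± 0.37, adjusted p = 6.36e-10. Of 18 NF-κB and Toll signalling genes 3 were lower at day 7, *Relb*, *Nfkb1* and *Nfkb2*, by -1.50 ± 0.25, adjusted p = 1.28e-04 for *Relb*, and 1 was higher, a share of lower genes near that of all genes. Of 10 NF-κB inhibitors and feedback genes 5 were lower and 1 higher, led by *Nfkbie* at -4.33 ± 0.65, adjusted p = 5.26e-05. Of 11 JAK-STAT and SOCS genes 4 were lower and none higher, with *Socs1* at -2.96 ± 0.32, adjusted p = 1.94e-06. Of 10 genes of AU-rich message decay 4 were lower and none higher, among them *Zfp36l1* at -2.04 ± 0.16, adjusted p = 7.06e-08 and *Zfp36* (tristetraprolin) at -1.87 ± 0.25, adjusted p = 2.04e-05.

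Between ML-792 and DMSO, 2, 3 and 2 of the 10 NF-κB inhibitors and feedback genes were called in total reads at days 1, 3 and 7, all higher, where 8.12%, 15.5% and 11.8% of all genes were called in either direction, and in labelled reads at day 1, 1 of the 9 tested was higher and 1 lower. *Nfkbiz*, an atypical IκB, was at 1344, 1514 and 1309.9 at day 1 against 645, 469 and 609.5 in DMSO (1.27 ± 0.18, adjusted p = 4.17e-05). *Irak3*, an inhibitor of Toll signalling, was at 70.6, 136 and 86.7 against 3.68, 17.3 and 13.2 (3.08 ± 0.60, adjusted p = 0.00186). Neither pair of groups overlapped. Of the other chemokine ligands, *Cxcl13* was at 593, 526 and 584 in ML-792 at day 1 against 99.3, 59.2 and 71.8 (2.88 ± 0.25, adjusted p = 7.08e-08), and *Cx3cl1*, a membrane-bound chemokine, was lower at day 1 (-1.13 ± 0.23, adjusted p = 0.00268). Of that list 3, 3 and 2 of 13 were called at days 1, 3 and 7, of which 2, 1 and 1 were lower. Of the 13 interferon genes 1, 2 and 2 were called at days 1, 3 and 7. *Irf1*, an interferon-induced factor, was lower at day 3 (-0.85 ± 0.21, adjusted p = 0.00859), and the 2 of day 7 were higher, *Usp18*, which removes ISG15 from proteins, at 422, 529 and 355 against 91.4, 178 and 87.9 (1.86 ± 0.36, adjusted p = 0.00149) and *Bst2* (1.19 ± 0.26, adjusted p = 0.004). *Vegfa* was lower in ML-792 at day 1 in total reads (-1.22 ± 0.17, adjusted p = 3.49e-05) and in labelled reads (-2.19 ± 0.41, adjusted p = 9.71e-04), *Socs3* higher at day 7 (1.52 ± 0.36, adjusted p = 0.00961), *Socs1* lower in labelled reads at day 1 (-2.44 ± 0.57, adjusted p = 0.0155) and higher in total reads at day 7 (1.05 ± 0.31, adjusted p = 0.0412), and *Zfp36l1* lower at day 1 (-1.04 ± 0.13, adjusted p = 1.20e-05). *Ackr3*, chosen here after its values were seen because CXCL12 is its ligand, was at 511, 598 and 609.7 in ML-792 at day 1 against 167, 295 and 199 in DMSO, without overlap. Of the receptors *Lifr* was higher at day 7 (0.93 ± 0.15, adjusted p = 3.06e-04) and *Tnfrsf1b* lower at day 3 (-2.90 ± 0.48, adjusted p = 2.30e-04).

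Over the 24 libraries, which fall into days, the genes whose log2 normalized total reads followed a member most closely were sought among 13263 genes. They were *Isg15* for *Ccl2* (Pearson's r = 0.978), *Pdgfrb* for *Ccl7* (0.970), *Samd4* for *Ccl9* (0.973), *Runx2* for *Cxcl1* (0.957), *Atp1b1* for *Cxcl5* (0.978) and *Lbh* for *Csf1* (0.984). The low counts of *Cxcl10* and *Il6* gave lower values, 0.883 with *Gm30178* and 0.919 with *Ttbk2*. Between members the pairs ran from 0.227 for *Ccl9* with *Il6* to 0.963 for *Ccl2* with *Ccl7*. All these values describe libraries of the same 8 conditions and carry no test.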

How the data were processed

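Total and labelled (T-to-C converted) reads were counted in 3′ end windows of RefSeq transcripts on mm10 with SlamDunk, and the authors deposited both as raw counts per window. Libraries were QuantSeq 3′ end libraries demultiplexed, per the submitters' processing notes, with bcl2fastq 2.17.1.14. Both tables also hold 6 library columns of no labelled sample, which were not used. One window per symbol, of 91830 windows, was named by its mean total count, but every window that passed edgeR's filterByExpr (minimum count 10, minimum total 15) entered the fit, 26338 in total and 10170 in labelled reads.

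Counts were scaled by TMM factors of the total reads, for labelled counts too. Days were compared within DMSO and within ML-792 (12 libraries each) at adjusted p under 0.01, and ML-792 with DMSO within a day, with the interaction of day and treatment, in all 24 libraries at adjusted p under 0.1, by edgeR 4.0.16 (R 4.3.3) quasi-likelihood tests with Benjamini-Hochberg adjustment over all windows. The scripts were tested on simulated data. DESeq2 1.42.0, no filter, 1 window per gene, scaling by labelled reads, a subtracted labelling background, other libraries in the fit, replicate letter as a block and each replicate left out were the alternatives. From each list, genes called at day 7 against day -2 in DMSO were named, at most 3 in each direction, and for ML-792 at most 3 called at a day. The members and lists were chosen with earlier results of these data known. The gene closest in pattern to *Cxcl12* is not reported here.

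Replicate libraries of a condition differed by more than sampling noise (chi-square per degree of freedom 11.1 to 98.9). The cultures were separate biological replicates of 1 line. Reads carried no molecular identifiers, so intervals on counts cover counting error only. Sequences came from RefSeq tables and the genome of build GRCm38.p6, read with pysam 0.24.0, and figures were drawn with matplotlib 3.10.9.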

Additional observations from a re-analysis of the deposited data

Results flagged for a closer look

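The difference between ML-792 and DMSO in total reads varied between the 4 days for 4 of the 7 tested members that were not selected on it, by edgeR's interaction of day and treatment. For *Cxcl12* the adjusted p was 2.96e-05, with a log2 difference of -1.52 at day 1 and 0.67 at day 7. In its other counting windows, which overlap each other, the adjusted p was 0.0846 and 0.0896. For *Csf1* it was 0.00732, with 1.18 at day 3 and 0.99 at day 7, above DMSO in 3 of 3 libraries at both days, and in its other counting window it was 0.0821. For *Cxcl5* it was 0.0463, with 1.32 at day 1 and 1.55 at day 3, above DMSO in 3 of 3 libraries at both days. For *Cxcl1* it was 0.0626, with 1.11 at day 1 and -0.13 at day 3.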

How the results depend on the processing

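Signs of single members were checked in DMSO against day -2 and for day 7 against day 3, and for ML-792 against DMSO at days 1, 3 and 7. No called value in these comparisons changed sign under any alternative that was run. Across the alternatives 187 of 196 counts of members stayed within 1.5 times their value, counts that stayed at 0 included. Scaled by labelled reads, 4 members in place of 7 were lower at day 1 in ML-792 labelled reads. Leaving out each replicate in turn gave, at days 1, 3 and 7 against day -2, 5 to 6, 7 to 8 and 8 members lower in DMSO total reads, 6, 7 and 7 in ML-792 total reads, 5 to 6, 6 to 7 and 6 in DMSO labelled reads, and 6 to 7 at each day in ML-792 labelled reads. For ML-792 against DMSO it gave 0 members called at day -2, 2 to 3 at day 1, 1 to 4 at day 3, 0 to 2 at day 7 and 1 to 4 for the interaction in total reads, and 0, 0 to 1, 0 to 1, 0 and 0 in labelled reads. At day 3 in total reads 1 member was called without replicate A, at day 7 0 without A or C, and for the interaction 1 without A or C. In labelled reads 0 were called at day 1 without B or C, and 1 at day 3 without B, *Cxcl5* (adjusted p = 0.0972). The cause was not tested.

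With the replicate letter as a block (replicate block), 4 members in place of 3 were called for ML-792 at day 1 in total reads, *Ccl9* in addition (adjusted p = 0.0828), and no other count of members changed. In total reads, libraries of the same letter in different conditions correlated over 0.1 in 70 of 84 pairs (mean 0.215) and those of different letters in 25 of 168 (mean -0.105), and in labelled reads in 25 of 84 and 0 of 168. This hints that the letters mark something shared, but not every same-letter pair passed 0.1 (lowest -0.123), so the block was kept as an alternative. Over all genes the block called 2145, 3228 and 2920 in place of 1077, 2051 and 1563 for ML-792 in total reads at days 1, 3 and 7, 181, 131 and 155 in place of 69, 72 and 62 in labelled reads, and 3366 and 82 in place of 1593 and 18 for the interaction. In DMSO it called 3426 in place of 2246 at day 1 and 2467 in place of 1458 for day 7 against day 3. Over all genes DESeq2 called more in labelled reads, 165, 130 and 144 against 69, 72 and 62 for ML-792 at days 1, 3 and 7, 45 against 21 for day 7 against day 3 in DMSO, and 98 against 18 for the interaction. With the 6 libraries of a day alone, 679 and 1338 genes were called in total reads at days 1 and 3, and 43 and 118 in labelled reads at days 1 and 7. Scaled by labelled reads, 363, 803 and 750 in place of 1255, 2197 and 1942 were called in DMSO labelled reads at days 1, 3 and 7. Without replicate A 293, 810 and 492 genes were called for ML-792 in total reads at days 1, 3 and 7, and without C 449, 995 and 512. Depth limits *Cxcl10* and *Il6*, with at most 54 and 55 total reads in a library, and most members in labelled reads after day 1, where *Csf1*, for one, had 3, 3 and 1 reads in the DMSO libraries of day 3.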
